A study of Homo sapiens with 28 samples.

Results

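The MHC class I antigen presentation genes of LNCaP cells were examined: HLA-B, HLA-C, HLA-E, B2M, TAP1, TAP2, TAPBP, PSMB8 and PSMB9. Members were the rows of the counts table whose gene symbol was on that list, and they were 9 of 61815 genes. LNCaP is an androgen-responsive prostate cancer line grown from a lymph node metastasis, and each group holds cultures of that 1 line. All cells were kept in androgen-depleted medium (charcoal-stripped serum) before treatment, and the vehicle groups received 0.1% DMSO. In the 24 h experiment 4 groups of 3 libraries each were vehicle, 1 µM Senexin B, 0.1 nM R1881, and R1881 + Senexin B at those doses. The Senexin B dose is that of the labels, and since the study's text gives another it is uncertain. In the 72 h experiment 4 groups of 4 libraries each were vehicle, 500 nM SNX631, 1 nM R1881, and R1881 + SNX631 at those doses. R1881 is a synthetic androgen, and Senexin B and SNX631 are inhibitors of the Mediator kinases CDK8 and CDK19 (CDK8/19i). Time, androgen dose and inhibitor changed together between the experiments and cannot be told apart, so their values are set side by side and not compared. In bulk RNA, fewer cells with a transcript and less of it per cell cannot be told apart, and nothing in the labels says whether the libraries of a group came from separate cultures.

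Class I molecules display peptides from inside the cell to CD8 T cells. The proteasome cuts proteins into peptides, and in cells exposed to interferon the subunits PSMB8 and PSMB9 replace constitutive subunits of its active core. The transporter made of TAP1 and TAP2 carries the peptides into the endoplasmic reticulum, where tapasin (the TAPBP product) bridges it to the heavy chains, which fold only with the light chain beta-2-microglobulin (B2M). HLA-B and HLA-C present to T cells, whereas HLA-E presents mainly leader peptides of other heavy chains to the CD94/NKG2 receptors of natural killer cells. Tumours often carry low class I, and many genes of the pathway share interferon and enhanceosome elements in their promoters.

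The promoters are shown first because the members divided by direction of response and by level while several of them hold the same short elements. RefSeq sequence (build GRCh38.p14) was found for 8 of the 9 members, all but HLA-E. The 250 bases upstream of the start site are given 5′ to 3′ on the gene's strand. Capitals mark matches on either strand to the interferon response element (TTTC, 2 bases of any kind, TTTC), TTCNNNGAA (gamma-activated site), TGACG (core of the X2 box), ATTGG (inverted CCAAT box), a kappa B form (GGGA, 4 bases of any kind, CC) and AGAACA (androgen receptor element core), and overlapping matches run together.
HLA-B, chr6:31357180-31357429, minus strand: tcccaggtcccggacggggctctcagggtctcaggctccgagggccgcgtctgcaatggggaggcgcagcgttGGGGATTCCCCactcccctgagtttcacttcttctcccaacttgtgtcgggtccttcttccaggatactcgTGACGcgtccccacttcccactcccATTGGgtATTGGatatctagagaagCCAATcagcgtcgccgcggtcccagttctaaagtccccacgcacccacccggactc
HLA-C, chr6:31272093-31272342, minus strand: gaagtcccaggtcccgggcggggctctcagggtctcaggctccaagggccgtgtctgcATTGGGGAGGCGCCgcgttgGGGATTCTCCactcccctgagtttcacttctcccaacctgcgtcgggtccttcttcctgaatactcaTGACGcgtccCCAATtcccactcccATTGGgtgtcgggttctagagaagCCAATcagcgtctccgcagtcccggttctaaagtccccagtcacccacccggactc
B2M, chr15:44711267-44711516, plus strand: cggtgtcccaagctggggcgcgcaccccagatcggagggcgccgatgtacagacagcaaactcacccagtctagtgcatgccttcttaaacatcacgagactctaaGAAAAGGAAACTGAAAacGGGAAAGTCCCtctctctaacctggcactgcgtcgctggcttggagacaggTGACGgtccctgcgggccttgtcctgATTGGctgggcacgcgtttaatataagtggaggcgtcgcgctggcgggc
TAPBP, chr6:33314079-33314328, minus strand: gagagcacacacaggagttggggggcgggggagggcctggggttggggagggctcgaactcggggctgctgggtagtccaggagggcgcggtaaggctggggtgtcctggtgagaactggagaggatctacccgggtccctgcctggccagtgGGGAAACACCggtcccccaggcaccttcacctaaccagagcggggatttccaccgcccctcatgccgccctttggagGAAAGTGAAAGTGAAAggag
TAP2, chr6:32838740-32838989, minus strand: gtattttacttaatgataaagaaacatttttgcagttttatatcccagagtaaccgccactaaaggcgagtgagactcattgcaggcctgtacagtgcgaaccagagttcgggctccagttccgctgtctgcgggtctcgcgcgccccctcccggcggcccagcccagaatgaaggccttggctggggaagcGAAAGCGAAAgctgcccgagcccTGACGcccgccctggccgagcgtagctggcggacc
TAP1, chr6:32853705-32853954, minus strand: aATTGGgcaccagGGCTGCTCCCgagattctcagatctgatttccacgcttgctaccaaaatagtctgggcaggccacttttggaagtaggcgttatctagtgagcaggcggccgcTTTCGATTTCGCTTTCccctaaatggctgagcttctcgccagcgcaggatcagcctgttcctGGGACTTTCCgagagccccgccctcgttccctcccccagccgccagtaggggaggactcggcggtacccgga
PSMB9, chr6:32853942-32854191, plus strand: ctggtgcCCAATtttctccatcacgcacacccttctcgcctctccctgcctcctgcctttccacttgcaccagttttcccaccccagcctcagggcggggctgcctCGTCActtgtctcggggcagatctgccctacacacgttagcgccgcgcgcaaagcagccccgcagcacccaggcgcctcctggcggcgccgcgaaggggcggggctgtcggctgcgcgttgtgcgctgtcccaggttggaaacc
PSMB8, chr6:32844680-32844929, minus strand: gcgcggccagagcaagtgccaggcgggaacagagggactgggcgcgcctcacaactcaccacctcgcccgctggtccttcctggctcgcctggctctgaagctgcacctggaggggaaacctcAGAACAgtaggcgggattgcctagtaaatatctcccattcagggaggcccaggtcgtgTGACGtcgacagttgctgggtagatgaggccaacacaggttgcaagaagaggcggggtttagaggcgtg

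The interferon response element was matched in 4 of the 8 member promoters (B2M, TAP1, TAP2 and TAPBP), and in 3.02% of 35116 promoters of the same length. In TAP1, B2M and TAPBP 2 overlapping copies ran together, whereas TAP2 held 1. The gamma-activated site was matched in 0 of 8 members and in 6.57% of all promoters. The X2 core was matched in 6 members (21.2% of all promoters), the inverted CCAAT box in 5 (32%) and kappa B in 5 (22.6%). The androgen receptor element core was matched in 1 member, PSMB8, against 12.4% of all promoters. The HLA-B and HLA-C promoters were alike at 89% of 254 aligned positions. Both hold 2 kappa B matches upstream of 1 X2 core, with 3 CCAAT matches in HLA-B and 4 in HLA-C. The kappa B matches of HLA-B are 1 stretch read on both strands, whereas those of HLA-C are 2 separate stretches. A match is a description of the letters only. By their RefSeq start sites TAP1 and PSMB9 lie head to head, 488 bases apart on opposite strands, so the upstream ends of the 2 windows printed above overlap and share 1 CCAAT match. The GENCODE 29 model of PSMB9 instead starts upstream and covers all 8770 bases of TAP1 on the opposite strand.

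Per length of transcript, HLA-C was the highest member and PSMB8 the lowest in vehicle-treated cells of either experiment. Mean levels in the 24 h vehicle group, in library-scaled counts (CPM) per kilobase of exon (CPM per kb), were 64 for HLA-C, 49.3 for B2M, 24 for HLA-B and 21.1 for TAPBP. TAP1 stood at 8, HLA-E at 7.63 and TAP2 at 2.02 CPM per kb, whereas PSMB9 was at 0.339 and PSMB8 at 0.102. Before division by length B2M was above HLA-C in vehicle, at 117.2 against 99.5 CPM at 24 h and 90.8 against 73 CPM at 72 h. The order of these genes therefore depends on the length used. Libraries held 9846481 to 33809270 counts, the deepest being 24 h vehicle replicate 3, and the next 15248316. The androgen target KLK3 rose from 1.44 ± 0.292 to 110.2 ± 4.17 CPM (SD, n = 3) at 24 h and from 1.44 ± 0.171 to 138.2 ± 7.58 (SD, n = 4) at 72 h. Adding CDK8/19i to R1881 lowered KLK3 3.8-fold with Senexin B and 3-fold with SNX631, and luminal prostate markers summed to at least 2948.5 CPM in every library. The 6 leukocyte markers, class II HLA-DRA among them, summed to at most 0.937 CPM, and CD3E was at 0 in 28 of 28 libraries. The 3 basal markers summed to at most 0.44 CPM, with KRT5 at 0 in 28 of 28. Of the fibroblast markers COL1A1 alone was above 2.17 CPM. It reached 31.4 CPM and was below every vehicle library in all treated libraries, DCN was at 0 in 24 of 28 libraries, and the part of such cells in the results was not tested.

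**Figure D1:**
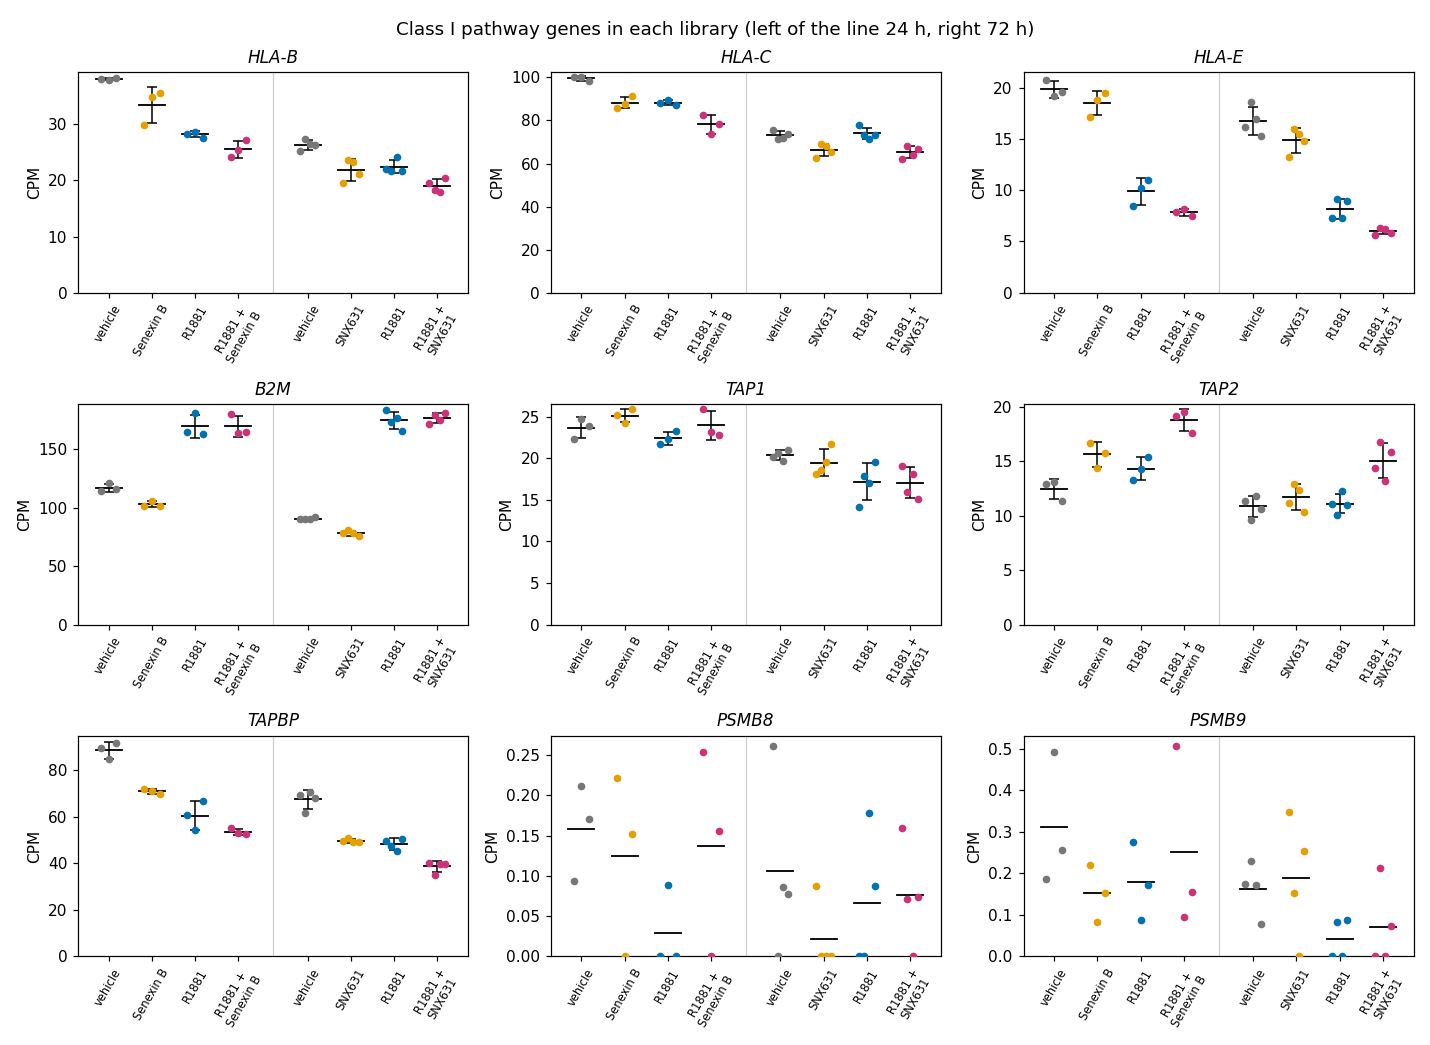
Each point is 1 library, with CPM (TMM-scaled) on the vertical axis from 0 and the 8 groups along the horizontal axis; lines give the group mean and bars the SD (no bars for PSMB8 and PSMB9). HLA-E separates by R1881 in both experiments, B2M does so in the opposite direction, and no library exceeds 0.254 CPM of PSMB8 at 24 h or 0.261 at 72 h.

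HLA-E was the member that fell the most with androgen. At 24 h its level was 20.8, 19.2 and 19.6 CPM in vehicle and 8.44, 10.2 and 11 CPM in R1881. At 72 h the vehicle libraries gave 16.2, 18.6, 17 and 15.3 CPM and the R1881 libraries 7.31, 9.1, 7.3 and 8.94 CPM. No R1881 library reached the lowest vehicle library in either experiment. The log2 fold change was −0.99 ± 0.093 (SE; FDR = 2.9e-11, 1.99-fold lower) at 24 h and −1.03 ± 0.093 (FDR = 1.33e-12, 2.04-fold lower) at 72 h.

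Genes were called where edgeR's FDR, adjusted over all genes tested, was under 0.01 and the fold change over 1.5. With R1881 against vehicle at 24 h, 1 of the 7 members tested was called, HLA-E, against 19% of 15948 genes called in either direction and 9.19% called lower. At 72 h 2 of 7 were called. These were HLA-E, lower (10.1% of 16074 genes were called lower), and B2M, higher (9.7% were called higher), with 19.8% called in all. PSMB8 and PSMB9 did not pass the filter on low counts in either experiment and are described by their counts alone.

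HLA-E stayed low when an inhibitor was present. It stood at 7.86, 8.2 and 7.48 CPM with R1881 + Senexin B and at 17.2, 18.8 and 19.5 CPM with Senexin B alone. With SNX631 the corresponding libraries gave 5.66, 6.35, 6.18 and 5.85 CPM with R1881 and 13.2, 16, 15.5 and 14.8 CPM without. All libraries with both agents lay below all libraries with R1881 alone. That further step, −0.34 (95% interval −0.58 to −0.10) with Senexin B and −0.45 (−0.67 to −0.22) with SNX631, stayed under the fold limit, with FDR = 0.0233 and 0.000973. Against the inhibitor alone R1881 lowered HLA-E 2.36-fold (FDR = 1.94e-12) at 24 h and 2.47-fold (FDR = 4.43e-15) at 72 h. Without androgen the inhibitors left overlapping groups, with log2 differences of −0.09 (−0.25 to 0.06) and −0.17 (−0.33 to −0.01).

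B2M, the class I light chain, moved the other way. Vehicle libraries at 72 h held 90.3, 90.6, 90.3 and 91.8 CPM, and R1881 libraries 183.7, 173.7, 176.8 and 165.9 CPM. The 2 groups were far apart, with a log2 fold change of 0.95 ± 0.033 (FDR = 4.75e-25, 1.93-fold higher). At 24 h B2M went from 114.5, 120.9 and 116.1 CPM to 164.6, 181 and 163.2 CPM, again with no overlap. That rise, 0.53 ± 0.042 on the log2 scale (FDR = 9.56e-13, 1.45-fold), was under the fold limit and so was not called.

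In the absence of androgen both inhibitors lowered B2M by a small step. Senexin B libraries held 101.9, 105.9 and 101.1 CPM, and SNX631 libraries 78.8, 80.6, 78.4 and 75.5 CPM, each set below all its vehicle libraries. The log2 fold changes were −0.19 ± 0.044 (FDR = 0.00107) and −0.21 ± 0.036 (FDR = 1.02e-05), under the fold limit. With R1881 the inhibitor groups could not be distinguished from R1881 alone. Libraries with R1881 + Senexin B held 180.1, 164.1 and 165.3 CPM, a log2 difference of 0.002 from R1881 (95% interval −0.083 to 0.087). Those with R1881 + SNX631 held 171.7, 179.8, 174.8 and 181.1 CPM, a difference of 0.017 (−0.043 to 0.077). On an inhibitor background the androgen step was 1.65-fold (FDR = 1.43e-15) with Senexin B and 2.26-fold (FDR = 3.35e-28) with SNX631. The interaction at 72 h was 0.23 ± 0.047 (FDR = 0.00056), which passed the FDR limit but not the fold limit, and at 24 h it was 0.19 ± 0.061 and missed the FDR limit (FDR = 0.0728).

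With R1881 in inhibitor-treated cells 2 of 7 members were called in each experiment, B2M higher and HLA-E lower. At 24 h 18.9% of all genes were called in that comparison, 9.97% higher and 8.9% lower. At 72 h 22% were called, 10.1% higher and 12% lower.

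HLA-B and HLA-C, the heavy chains that present to CD8 T cells, fell less than HLA-E. HLA-B read 38.1, 37.9 and 38.3 CPM in 24 h vehicle, 29.8, 34.9 and 35.6 CPM with Senexin B, 28.3, 28.7 and 27.6 CPM with R1881, and 24.1, 25.4 and 27.1 CPM with both. The 4 groups did not overlap in that order. The R1881 step was −0.43 ± 0.064 (FDR = 5.71e-07) and that of both agents together −0.58 ± 0.065 (FDR = 2.11e-09), just under the fold limit of 1.5 at 1.49-fold. It passed that limit under scaling by library totals (−0.69), without the filter on low counts (−0.59) and without replicate 3 of R1881 + Senexin B (−0.62).

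At 72 h HLA-B went from 25.2, 27.3, 26.5 and 26.3 CPM in vehicle to 22.1, 21.7, 24.1 and 21.7 CPM with R1881 and 19.5, 23.6, 23.2 and 21.1 CPM with SNX631. With R1881 + SNX631 it was 19.5, 18.3, 18 and 20.4 CPM. Vehicle stood above the rest, whereas the R1881 and SNX631 groups overlapped. The log2 fold changes were −0.23 ± 0.064 (FDR = 0.00182) for R1881, −0.26 ± 0.063 (FDR = 0.000852) for SNX631 and −0.47 ± 0.063 (FDR = 2.53e-08) for both, none past the fold limit.

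HLA-C fell slightly with either agent at 24 h, 1.12-fold. It read 100.1, 100.2 and 98.2 CPM in vehicle, 85.9, 87.8 and 91.2 CPM with Senexin B, 88.2, 89.5 and 87.2 CPM with R1881, and 82.5, 73.6 and 78.5 CPM with both. Senexin B and R1881 overlapped each other and lay between the other groups, with log2 fold changes of −0.17 ± 0.041 (FDR = 0.00132) and −0.17 ± 0.042 (FDR = 0.000768). At 72 h R1881 left HLA-C at 71.5 to 77.8 CPM against 71.2 to 75.7 CPM in vehicle, a log2 difference of 0.017 ± 0.04 (FDR = 0.724). That sign turned to −0.08 under scaling by library totals. SNX631 gave 62.6 to 69.1 CPM and R1881 + SNX631 62.1 to 68.2 CPM, both below vehicle, by −0.14 ± 0.04 (FDR = 0.00637) and −0.16 ± 0.039 (FDR = 0.000434).

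The ratio of heavy to light chain counts within a library, which no scaling between libraries can alter, separated the groups by androgen. HLA-B, HLA-C and HLA-E together gave 1.34 ± 0.044 counts per B2M count in 24 h vehicle and 0.747 ± 0.033 with R1881 (SD, n = 3). At 72 h the ratio was 1.28 ± 0.019 in vehicle and 0.598 ± 0.021 with R1881 (SD, n = 4). There R1881 changed the ratio mainly through B2M, which rose from 90.8 to 175 CPM. HLA-C, the most abundant heavy chain in the ratio, was at 73 CPM in vehicle and 74 CPM with R1881. With both agents the ratio was 0.658 ± 0.025 at 24 h and 0.51 ± 0.0058 at 72 h, below every library with R1881 alone. Inhibitor alone left it at 1.36 ± 0.075 and 1.31 ± 0.072, overlapping vehicle. For HLA-E alone the mean ratio was 0.17 in vehicle and 0.0586 with R1881 at 24 h, and 0.185 and 0.0468 at 72 h.

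**Figure D2:**
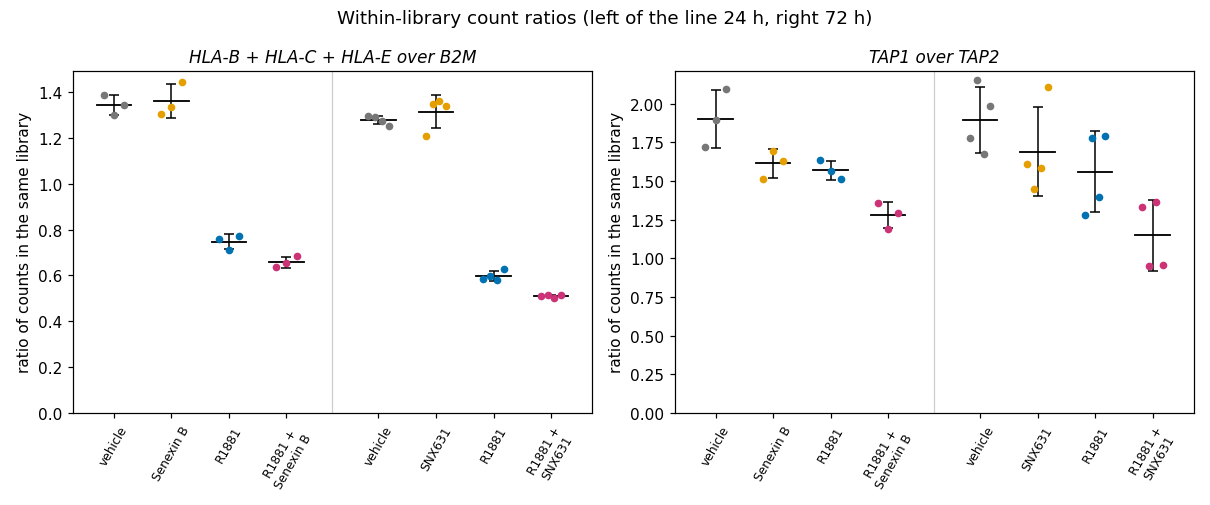
The left panel plots, for each library, the counts of HLA-B, HLA-C and HLA-E together over the B2M count, and the right panel TAP1 over TAP2; points are libraries, lines the group mean and bars the SD. Heavy over light chain lies between 1.21 and 1.45 in all libraries without R1881 and between 0.503 and 0.771 in all with it.

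The transcripts of the paired chains of the peptide transporter moved apart. TAP2 read 12.9, 13.1 and 11.4 CPM in 24 h vehicle, 16.7, 14.4 and 15.8 CPM with Senexin B, 13.3, 14.3 and 15.4 CPM with R1881, and 19.2, 19.5 and 17.6 CPM with both. Vehicle was the lowest group and both agents the highest, and the 2 single agents overlapped. Senexin B raised it by 0.36 ± 0.085 without androgen (FDR = 0.00113) and 0.39 ± 0.091 with it (FDR = 0.00121), under the fold limit. Both agents against vehicle gave 0.62 ± 0.084 (FDR = 1.21e-07, 1.54-fold), a call that was lost without 24 h vehicle replicate 3, the deepest library (0.52), and under scaling by library totals (0.51).

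At 72 h TAP2 was 11.4, 9.6, 11.8 and 10.6 CPM in vehicle, 11.2, 12.9, 12.4 and 10.3 CPM with SNX631, and 11.1, 10.1, 12.3 and 11 CPM with R1881. These 3 groups overlapped. With R1881 + SNX631 it was 14.4, 16.8, 13.2 and 15.9 CPM, above every other library of that experiment. The step over R1881 was 0.44 ± 0.09 (FDR = 9.64e-05), under the fold limit. SNX631 without androgen gave 0.12 (95% interval −0.07 to 0.31), and the interaction did not pass the test (FDR = 0.0996).

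TAP1 stayed between 21.7 and 26 CPM in all 12 libraries of the 24 h experiment, and neighbouring groups in order of level overlapped, although Senexin B (24.3 to 25.9 CPM) lay above R1881 (21.7 to 23.3 CPM). At 72 h it was 19.7 to 21 CPM in vehicle and 14.2 to 19.6 CPM with R1881, a log2 fold change of −0.24 ± 0.081 that missed the FDR limit (FDR = 0.0106). R1881 + SNX631 gave −0.26 ± 0.077 against vehicle (FDR = 0.00294), under the fold limit. Counts of TAP1 per count of TAP2 went from 1.9 ± 0.19 in 24 h vehicle to 1.28 ± 0.083 with both agents (SD, n = 3), and from 1.9 ± 0.21 to 1.15 ± 0.23 at 72 h (SD, n = 4), with no overlap in either experiment.

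Tapasin (TAPBP) fell with androgen and with CDK8/19i, and furthest with both. At 24 h it read 89.3, 84.6 and 91.5 CPM in vehicle, 71.8, 71.1 and 69.6 CPM with Senexin B, 60.6, 54.1 and 66.6 CPM with R1881, and 55, 52.8 and 52.5 CPM with both. At 72 h it read 69.2, 61.7, 70.7 and 68.2 CPM in vehicle, 49.7, 50.9, 49 and 49 CPM with SNX631, 49.6, 47.5, 45.1 and 50.6 CPM with R1881, and 40.2, 35.1, 39.8 and 39.8 CPM with both. Every treated library was below every vehicle library of its experiment. R1881 gave −0.56 ± 0.052 (FDR = 5.2e-11, 1.47-fold lower) and −0.48 ± 0.048 (FDR = 2.31e-11), both under the fold limit. The 24 h value passed it without replicate 3 of R1881 (−0.625) and under library totals (−0.633), and the 72 h value under library totals (−0.585).

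Among the 7 tested members TAPBP had the largest fall with either inhibitor in the absence of androgen, −0.33 ± 0.049 (FDR = 3.15e-06) for Senexin B and −0.44 ± 0.046 (FDR = 6.07e-10) for SNX631. Neither reached the fold limit. With both agents against vehicle the fall was 1.66-fold at 24 h (FDR = 6.68e-14) and 1.74-fold at 72 h (FDR = 9.32e-18), and was called.

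**Figure D3:**
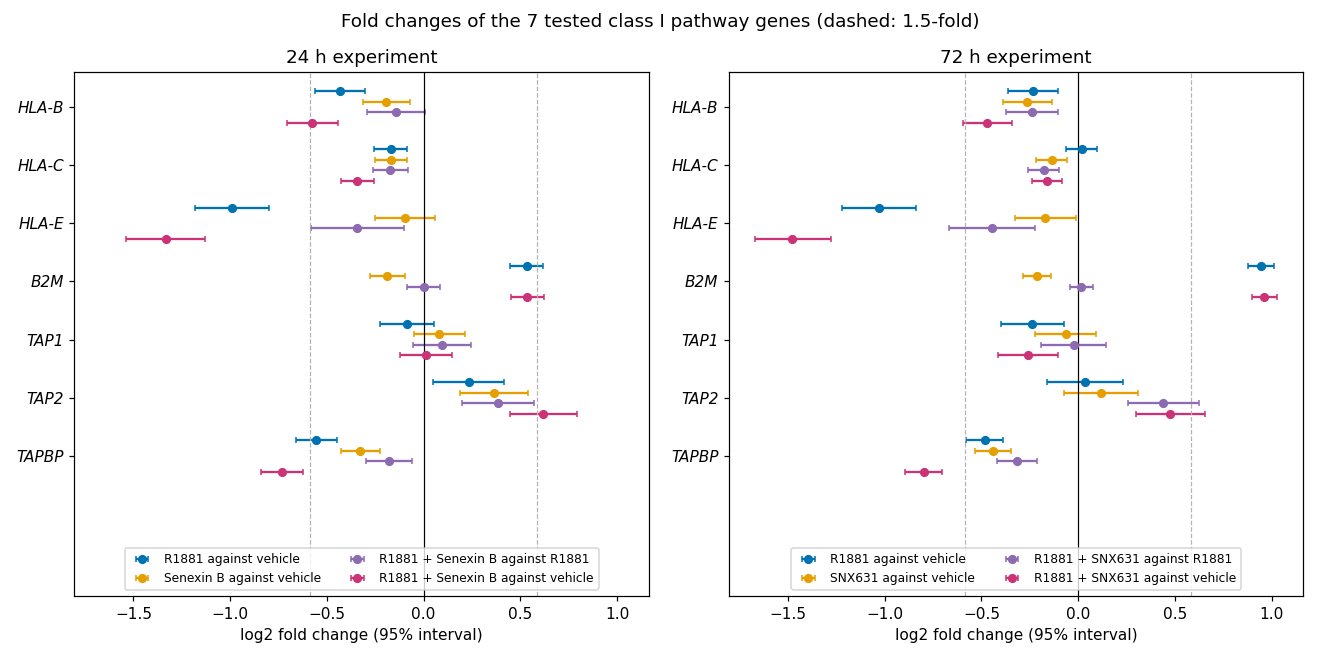
The horizontal axis gives the log2 fold change of each tested member with its 95% interval in 4 comparisons per experiment (colours); dashed lines mark 1.5-fold. HLA-E lies beyond the line on the low side wherever R1881 is set against vehicle, B2M lies on the high side at 72 h, and no interval for an inhibitor without androgen reaches a line.

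Neither inhibitor called a member, with or without androgen. For Senexin B against vehicle 0 of 7 members were called, against 3.79% of all genes, and 4 passed the FDR limit alone, as did 25.2% of all genes. For SNX631 against vehicle 0 of 7 were called (4.77% of all genes), and again 4 passed the FDR limit alone, as did 26.9% of all genes. In the presence of R1881 the counts were 0 of 7 for Senexin B (3.12% of all genes) and 0 of 7 for SNX631 (4.12%). Past the FDR limit alone were 2 members with Senexin B (22.7% of all genes) and 5 with SNX631 (33.1%). DESeq2's Wald test also called 0 members in each of these comparisons. At an unadjusted edgeR p under 0.05, 5 members passed for Senexin B alone (44% of all genes), 5 for SNX631 alone (44.6%), 4 for Senexin B with R1881 (42.1%) and 5 for SNX631 with R1881 (49%). At FDR under 0.05 with no fold limit the counts were 5 (35.8%), 4 (36.5%), 4 (33%) and 5 (42.8%) in that order. With 7 members tested, these counts are too few to read a difference from the shares of all genes.

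The median log2 fold change of the 7 members was −0.17 for Senexin B and −0.17 for SNX631 without androgen, where that of all genes was 0.00047 and 0.002. Regardless of sign, the median size of the change over all genes was 0.152 and 0.136, so steps of this size were common. In both experiments HLA-B, HLA-C, HLA-E, B2M and TAPBP were below 0 and TAP2 above 0, and TAP1 was above 0 with Senexin B and below 0 with SNX631. The members were chosen as a pathway, and no test was made over them as a set. Interactions of androgen and inhibitor called 0 of 7 members in both experiments, where 0.577% and 1.19% of all genes were called. DESeq2's Wald test called 0 as well, and 1 and 3 members passed an unadjusted edgeR p of 0.05, as did 16.7% and 25.1% of all genes.

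Both agents against vehicle called 3 members in each experiment. At 24 h these were HLA-E (2.52-fold, FDR = 4.73e-14) and TAPBP, lower, and TAP2, higher, where 25.5% of all genes were called, 13.2% higher and 12.3% lower. At 72 h these were HLA-E (2.78-fold, FDR = 4.25e-17) and TAPBP, lower, and B2M, higher (1.95-fold, FDR = 7.8e-26), where 26.7% were called, 12.3% higher and 14.4% lower. With 7 members tested, 1 to 3 calls are too few to read a difference from the shares of all genes.

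PSMB8 and PSMB9, the inducible subunits of the immunoproteasome, were close to absent. PSMB8 had 33.5 counts in all 28 libraries together and at most 6 in any 1 library. PSMB9 had 62 counts in all and at most 9 in any 1 library. Both highest counts came from the deepest library, 24 h vehicle replicate 3. Neither was above 0.507 CPM in any library. Summed over a group's libraries PSMB8 had 1 to 10 counts and PSMB9 2 to 18, and differences between groups were not tested. PSMB10, the remaining inducible subunit, was measured at 7.26 to 11.4 CPM across group means, and 0 of 12 comparisons called it.

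The constitutive subunits that these replace were abundant. Group means lay between 140 and 168.2 CPM for PSMB5, between 60.7 and 79.2 CPM for PSMB6 and between 106.3 and 117.5 CPM for PSMB7. The proteasome activators PSME1 and PSME2, also known as interferon-inducible, lay at 87.9 to 127.9 CPM and 61.6 to 79.4 CPM. Of the 8 proteasome genes on this list, 0 were called in any of the 12 comparisons, where 38.6% of 16341 genes were called at least once.

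The gap between neighbours was wide. By RefSeq start sites TAP1 shares with PSMB9 the 488 bases between them, yet per length it was at 5.76 to 8.5 CPM per kb over the 8 group means where PSMB9 was at 0.0463 to 0.339. PSMB8, whose start lies 9025 bases from that of TAP1, was at 0.0141 to 0.102, and TAP2, 14965 bases away, at 1.76 to 3.04 CPM per kb. An antisense RNA, PSMB8-AS1, overlaps PSMB8, PSMB9 and TAP1 in the GENCODE 29 annotation, and whether counting used strand is not given in the sources used here.

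**Figure D4:**
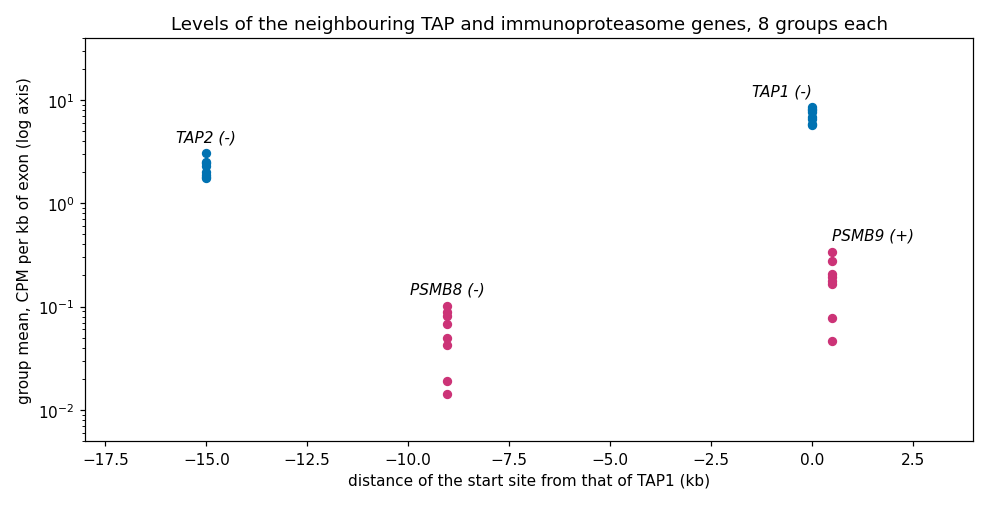
RefSeq start sites are placed by distance from that of TAP1 in kilobases, with signs in brackets for the strand, and the vertical log axis gives each of the 8 group means in CPM per kb of exon. TAP1 and TAP2 lie between 1.76 and 8.5, and PSMB8 and PSMB9 between 0.0141 and 0.339, although PSMB9 starts 488 bases from TAP1.

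Other genes of the pathway were taken as 5 lists of 45 genes in all. Of these 11 were called in at least 1 of 12 comparisons, 31 were tested throughout and never called, and HLA-G, MICB and CD1D were too low to test. Over the same 12 comparisons 38.6% of the 16341 genes tested in either experiment were called at least once. Among class I-like chains MR1, which presents vitamin B metabolites to mucosal T cells, was called lower in 10 of 12 comparisons, all but the interactions. It fell from 22 ± 1.72 to 12.5 ± 0.11 CPM with Senexin B, 13.2 ± 0.91 with R1881 and 7.08 ± 0.43 with both (SD, n = 3). At 72 h it fell from 18.6 ± 1.56 to 11.3 ± 1.02 CPM with SNX631, 11.8 ± 0.44 with R1881 and 5.47 ± 0.67 with both (SD, n = 4). MR1 was thus called with either inhibitor alone (1.79-fold, FDR = 3.66e-10 and 1.64-fold, FDR = 2.83e-09), where no member was.

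HLA-F, a nonclassical heavy chain, was lower wherever R1881 was combined with an inhibitor and set against inhibitor or vehicle, 4 calls of 12. It stood at 1.84 ± 0.11 CPM in 24 h vehicle and 0.767 ± 0.23 with both agents (2.35-fold, FDR = 0.000279), and at 1.41 ± 0.17 and 0.606 ± 0.17 at 72 h (2.31-fold, FDR = 0.000242). HFE, which binds the transferrin receptor, was called lower in 4 comparisons, with 1.17 ± 0.28 CPM in 72 h vehicle and 0.393 ± 0.21 in 72 h R1881 (FDR = 0.000463). FCGRT, the neonatal Fc receptor, was called lower in 1 of the 6 comparisons that tested it, from 1.06 ± 0.13 to 0.441 ± 0.12 CPM with both agents at 72 h (2.38-fold, FDR = 0.000553). These 3 genes had at most 109 counts over the libraries of a group.

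In peptide loading and trimming, TAPBPL (a tapasin-related peptide editor) was called lower in 4 comparisons. ERAP1, the aminopeptidase that trims peptides in the endoplasmic reticulum, was lower in 3, among them R1881 at 72 h, with 31.2 ± 0.97 CPM in vehicle and 20.1 ± 1.22 in R1881 (1.56-fold, FDR = 4.87e-12). ERAP2, its partner, rose with R1881 from 0.597 ± 0.29 to 1.44 ± 0.34 CPM at 24 h (FDR = 0.00386) and fell with SNX631 from 1.11 ± 0.38 to 0.452 ± 0.047 CPM at 72 h (FDR = 0.00306). The chaperones CALR, CANX and PDIA3 and the glycoprotein sensor UGGT1 were called in no comparison. CALR and PDIA3 still fell with inhibitor in the absence of androgen, with no overlap between libraries. CALR means went from 1025.1 to 768.9 CPM with Senexin B and from 1263.9 to 903.9 CPM with SNX631. PDIA3 means went from 640.7 to 517.3 CPM and from 761.8 to 576.5 CPM. CANX overlapped vehicle with Senexin B (471.6 and 461.7 CPM) and was below it with SNX631 (589.1 and 503.9 CPM).

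Of 15 regulators 3 were called in at least 1 of the 12 comparisons, all lower, where 38.6% of all genes tested were called at least once. NLRC5, the class I transactivator, was at 0.949 ± 0.43 CPM in 72 h vehicle and 0.23 ± 0.12 with R1881 (4.09-fold lower, FDR = 0.000165), on 47 and 10 counts over 4 libraries. At 24 h it was at 0.64 ± 0.31 and 0.359 ± 0.24 CPM (FDR = 0.108), and 1.41 ± 0.43 with Senexin B (FDR = 0.0158). IRF1, an interferon-induced activator of the pathway, stood at 8.05 ± 0.18 CPM in 72 h vehicle and was lowered by R1881 to 4.8 ± 0.44 (1.68-fold, FDR = 2.69e-07), and stood at 7.32 ± 1.29 and 4.91 ± 0.22 CPM at 24 h (FDR = 0.00138, 1.44-fold). NFKB1 fell from 87.7 ± 3.41 to 54 ± 1.52 CPM (1.63-fold, FDR = 9.78e-15) and from 99.4 ± 3.28 to 50.4 ± 1.47 CPM (1.97-fold, FDR = 6.51e-23). RFX5, RFXAP, RFXANK, CREB1, NFYA, NFYB, NFYC, IRF2, STAT2, IRF9 and RELA were among those called in none.

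Among receptors and kinases only IFNGR2, a chain of the interferon gamma receptor, was called, lower in 1 comparison (R1881 + SNX631 against vehicle, 72 h, 1.56-fold, FDR = 1.37e-12). JAK1, a kinase that interferon receptors signal through, was low per length, at 0.863 to 1.29 CPM per kb over group means. JAK2 lay at 6.66 to 11.5 and TYK2 at 13.1 to 15.9 CPM per kb, and none of the 3 kinases was called.

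**Figure D5:**
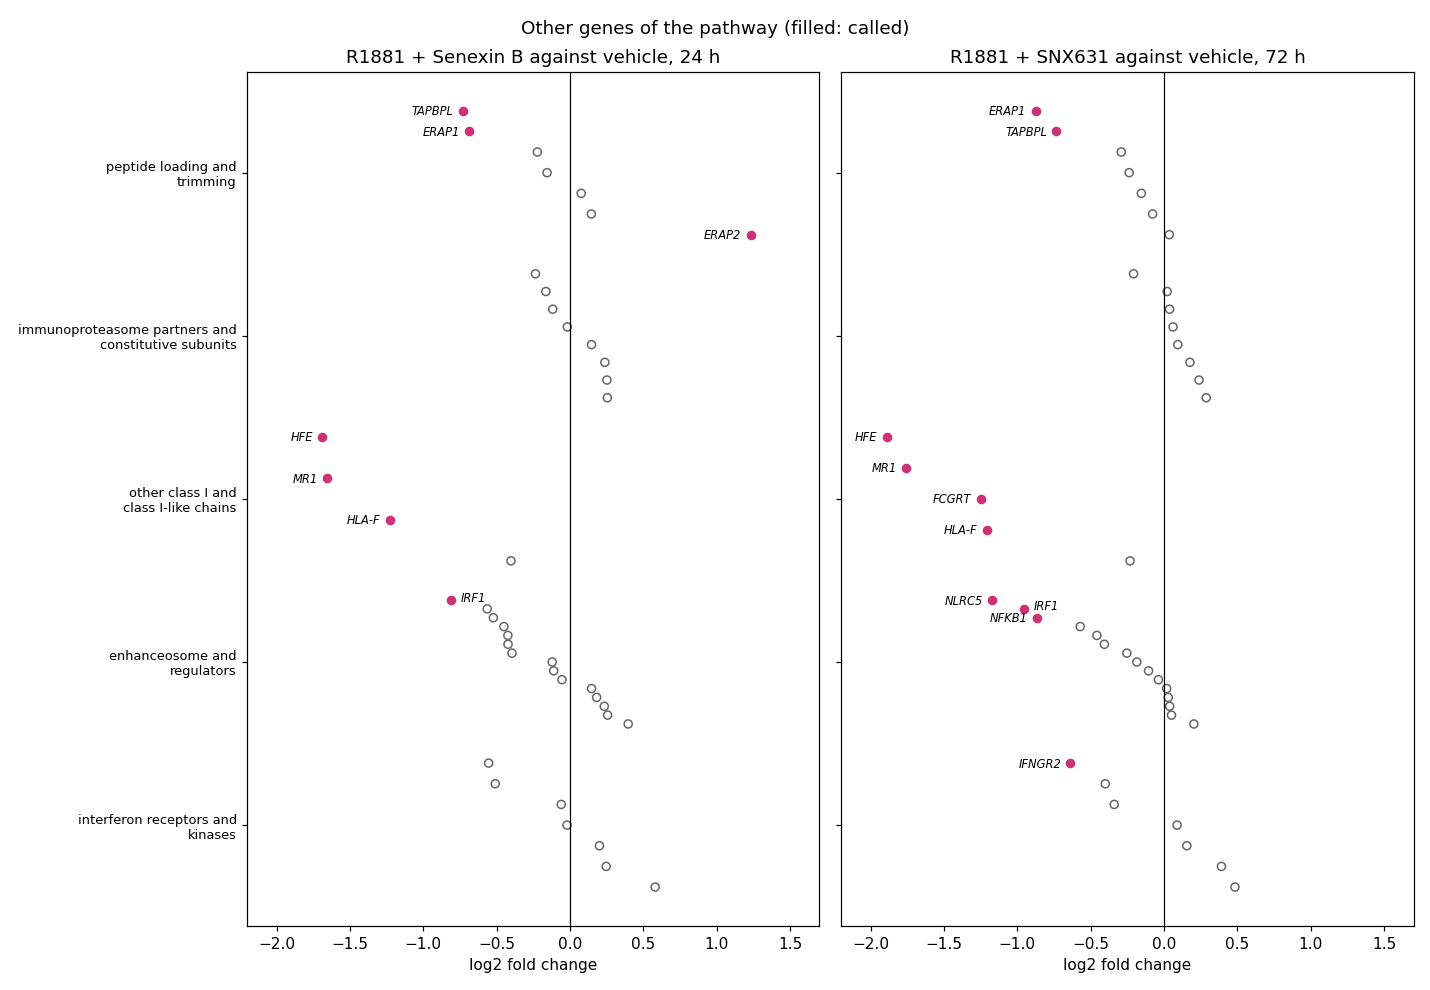
Each circle is 1 tested gene of the 5 lists, placed by its log2 fold change with both agents against vehicle at 24 h (left) and 72 h (right); filled and named circles were called. The list of other class I and class I-like chains (8 genes) has 3 of 4 tested genes called lower on the left and 4 of 5 on the right. The proteasome list has 0 of 8 called in both. Of all genes tested 25.5% were called on the left (12.3% lower) and 26.7% on the right (14.4% lower).

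The members did not share 1 profile. Over the 28 libraries, with log2 CPM centred within each experiment, HLA-B and TAPBP were the most alike pair (Pearson's r = 0.872), and HLA-E was most like TAPBP (0.854) and least like B2M (−0.906). TAP2 was least like TAPBP (−0.712). The points share treatments and libraries, so these values are descriptions of likeness with no test. Against the mean profile of the 7 members the genes outside the lists with the highest r were SNX15 (0.928), EEF1A2 (0.922), SPATA20 (0.92), ATN1 (0.906) and STAG3L4 (0.902). That mean profile followed HLA-B (0.905), TAPBP (0.9), HLA-E (0.802) and HLA-C (0.763), and TAP1 less (0.498). B2M (−0.549) and TAP2 (−0.546) ran against it, so likeness to it is not likeness to every member.

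Several members share sequence or span with other genes, which bears on how far their counts are their own. Deposited counts were fractional, a sign that reads were split among features or places, in 18 of 28 libraries for HLA-B, 17 for HLA-E, 16 for TAP2 and 12 for HLA-C, but in 1 for B2M and 1 for TAPBP. In GENCODE 29 (GRCh38) HLA-C lies at chromosome 6, 31268749 to 31272130, overlapping by 2640 bases the long span that annotation gives HLA-B, and TAP2 (32821833 to 32838780) lies within a same-strand protein-coding model, AL669918.1. TAP1 lies whole within the opposite-strand span of PSMB9 there, and PSMB8 shares 568 bases with it. HLA-E lies at 30489467 to 30494205 on chromosome 6 and B2M at 44711487 to 44718877 on chromosome 15. With the counts of HLA-B, HLA-C and HLA-E summed to 1 feature before the fit, R1881 gave −0.32 (FDR = 1.52e-08) at 24 h and −0.15 (FDR = 0.00038) at 72 h, and the R1881 + inhibitor groups −0.49 and −0.36 against vehicle, all under the fold limit. Calls on the separate heavy chains therefore rest on the authors' assignment of reads among them.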

How the data were processed

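RNA-seq libraries of LNCaP cells (8 groups, 28 libraries) were analysed from 1 table of estimated counts per gene that the authors deposited. Per the submitters' processing notes, cutadapt 2.8, STAR 2.7.2b and featureCounts of Subread 2.0.3 were used and GRCh38.p13 was among the builds. The annotation release and use of strand are not given in the sources used here. Of values above 0, 16.9% were fractional, so the deposited expected counts were rounded to whole counts. The 2 entries added to the genome held 0 counts and were left out.

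Each experiment was fitted alone with edgeR 4.0.16 (R 4.3.3; TMM scaling, filterByExpr at 10 counts, quasi-likelihood test), with Benjamini-Hochberg FDR over all genes tested. Genes past FDR 0.01 and 1.5-fold were called, after the limits of the study. Levels are TMM-scaled CPM, and errors of log2 fold changes are Wald SE from the fit. On counts simulated for R1881 against vehicle, 85.5% (24 h) and 88.5% (72 h) of 200 genes changed 2-fold were recovered, with 0 false calls. That simulation gave every gene the same spread beyond counting error (coefficient of variation 0.03). It therefore does not show the rate of false calls in these data. DESeq2 1.42.0, other scalings and filters, 1 fit of all libraries, a replicate block and leaving out each library were alternatives. All 9 members were described, with other pathway genes given by value where called, and NLRC5, IRF1 and JAK1 in any case. Some uncalled pathway genes were given by level, and the 5 genes most like the members' mean profile by r. A listed gene is not reported here by value. Members, lists and tests were chosen with earlier results of these data known. HLA-B and HLA-C promoters were aligned with Biopython. Counting error alone limits values of a few counts. No duplicate libraries were found within a group (chi-square per degree of freedom at least 1.2 in every within-group pair). Pairs across groups were not checked in this way.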

Additional observations from a re-analysis of the deposited data

Results flagged for a closer look

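TAPBP in 72 h R1881 + SNX631 replicate 2 stood at 35.1 CPM, far below the other 3 libraries of its group at 39.8 to 40.2 CPM. Among 28 sets of 4 libraries (7 members by 4 groups) it was the only one whose gap passed Dixon's limit, and chance marks about 1 set in 20. Without that library TAPBP was still called lower with both agents against vehicle, at −0.755 on the log2 scale where all libraries gave −0.799.

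The effect of R1881 on B2M at 72 h differed between cells with and without SNX631. The interaction was 0.229 on the log2 scale (95% interval 0.135 to 0.323, edgeR FDR = 0.00056), with means of 90.8 and 175 CPM without the inhibitor and 78.3 and 176.9 CPM with it. All 4 libraries with SNX631 alone lay below all 4 vehicle libraries, and the R1881 groups overlapped.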

How the results depend on the processing

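The number of members called moved by over 1.5 times under the FDR limit of 0.05 with no fold limit, under library totals, and without 1 library. At FDR under 0.05 with no fold limit it was 6 for R1881, 6 for R1881 in Senexin B, 5 for Senexin B, 4 for Senexin B with R1881 and 6 for both agents against vehicle at 24 h (1, 2, 0, 0 and 3 before). In the same order it was 5, 6, 4, 5 and 7 at 72 h, with 1 member in the interaction (2, 2, 0, 0, 3 and 0 before). Over all genes that setting called, in the order R1881, R1881 in inhibitor, inhibitor, inhibitor with R1881, both and interaction, 9307, 9157, 5717, 5256, 10655 and 717 genes at 24 h in place of 3030, 3009, 604, 498, 4068 and 92. At 72 h it called 9985, 10562, 5864, 6874, 11535 and 2034 in place of 3184, 3543, 766, 663, 4290 and 192. Under library totals R1881 at 24 h called 2 members in place of 1, and leaving out single libraries gave 1 to 2, the added member being TAPBP without 24 h R1881 replicate 3. Library totals moved the median of all genes by −0.113 (both agents, 24 h), and by −0.101, −0.107 and −0.134 at 72 h (R1881, R1881 in SNX631, both). Calls for R1881 at 72 h went from 1559 higher and 1625 lower to 1301 and 2115, and for both agents at 72 h from 1970 and 2320 to 1526 and 3126. HLA-E calls with R1881 were lost when the 3 heavy chains were summed, by construction of that setting, and HLA-B with both agents at 72 h was called under library totals (−0.603).

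Signs turned only for values that were not called. B2M with R1881 + Senexin B against R1881 became −0.00894 (filter at 1 CPM), −0.0339 (library totals), −0.00447 (no filter) and −0.00666 (without the 10 most abundant genes), and ranged from −0.0506 to 0.0421 leaving out single libraries. B2M with R1881 + SNX631 against R1881 became −0.0156 under library totals and ranged from −0.00721 to 0.0414. HLA-C with R1881 at 72 h became −0.0841 (library totals) and −0.151 (summed heavy chains) and ranged from −0.00704 to 0.0307, and with SNX631 present it became 0.0048 without a filter. TAP1 with both agents at 24 h became −0.101 (library totals) and −0.00488 (no filter) and ranged from −0.0514 to 0.0549, and with SNX631 added to R1881 from −0.0935 to 0.0447. TAP2 with R1881 at 72 h became −0.0654 under library totals and ranged from −0.0238 to 0.0803. The causes were not tested.

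Of the other 45 genes R1881, R1881 in Senexin B and both agents at 24 h called 3, 4 and 7, which became 7, 9 and 11 under library totals. R1881 at 24 h called 5 without 24 h vehicle replicate 3, SNX631 called 1 in place of 3 without 72 h SNX631 replicate 3, and Senexin B with R1881 called 1 in place of 2 without 24 h R1881 + Senexin B replicate 1 or 2 or 24 h R1881 replicate 2 or 3. At FDR under 0.05 with no fold limit, in the order above, 23, 29, 15, 15, 33 and 3 were called at 24 h in place of 3, 4, 1, 2, 7 and 0, and 30, 27, 22, 20, 29 and 7 at 72 h in place of 6, 7, 3, 1, 10 and 0. Same-numbered libraries were not treated as pairs, since 0 of 18 and 0 of 24 such pairs correlated over 0.1. Their highest values were 0.0666 at 24 h and 0.073 at 72 h, against 0.0472 and 0.0878 for pairs with other numbers. Whether the numbers mark a weak shared batch cannot be told from this. A replicate block left the counts of members called at 1, 2, 0, 0, 3 and 0 at 24 h and 2, 2, 0, 0, 3 and 0 at 72 h.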
